A study of Mus musculus with 30 samples.

Results

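Cytosolic ribosomal proteins build the small and large subunits of the ribosome outside mitochondria. The 77 genes described here were taken by name (Rpl or Rps with a number and at most a closing a, x or y, together with Rplp0, Rplp1, Rplp2 and Rpsa), without pseudogenes and without the Rps6k kinases. The same 77 names stood in both deposited tables, among 19468 rows for kidney and 19685 for pancreas. Of them 46 belong to the large and 31 to the small subunit.

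All mice were C57BL/6 and drank 0.2 mg/ml doxycycline for 7 days. Doxycycline switches on the i4F cassette, which carries the reprogramming factors Oct4 (Pou5f1), Sox2, Klf4 and Myc, so the i4F mice are induced too and no uninduced tissue was analysed here. Each tissue was read as polyadenylated RNA from whole organ in 3 groups of 5 libraries: i4F, i4F Ink4a/Arf KO (aimed at the Cdkn2a locus) and a last group, named i4F p53 KO in kidney and p53 KO in pancreas. The pancreas label of that last group does not name i4F, although Pou5f1 measured 24.6 to 98.2 FPKM there and at most 1.91 in the other pancreas libraries. The labels give 5 mice for each genotype. Whether kidney and pancreas libraries came from the same mice, and the ages and sexes, are not given in the sources used here. In bulk tissue, fewer cells of a type and less RNA per cell cannot be told apart.

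Ribosomal proteins are made in near-equal amounts, because each ribosome holds 1 copy of most of them, and many of their mRNAs begin with a run of pyrimidines through which mTOR signalling controls their translation. The factor Myc, part of the cassette, is a known activator of genes for ribosome production. When ribosome assembly is disturbed, free Rpl5 and Rpl11 bind Mdm2, the ligase that degrades p53, and so link ribosome production to p53. In the acinar cells of the pancreas, which export digestive enzymes, ribosomes fill much of the cytoplasm.

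The start of these genes carried the pyrimidine letters more often than promoters at large. In RefSeq entries of build GRCm38.p6, 57 of the 77 members had a promoter entry. In a window of 60 bases, 30 on each side of the annotated start, at least 1 of 3 pyrimidine motifs stood on the sense strand in 36 of 57 members (63.2%) and in 27.0% of all 27025 genes with an entry. The motif CTTTC was held by 36.8% of members and 9.18% of all genes (10.5% and 8.58% on the opposite strand). The motif CTTTT was held by 14.04% and 7.51% (opposite strand 7.02% and 8.18%). The motif CTTCC was held by 33.3% and 14.4% (opposite strand 26.3% and 16.4%). The motifs can overlap, and annotated starts can lie away from the base where transcription begins. The following windows belong to members whose changes are described below, with those letters in capitals; the annotated start is the 31st base. The first 6 windows are from members that lay below the other members in pancreas labelled p53 KO, and the last 4 from members that lay above them.
Rpl10 (chrX:74270786-74270845, plus strand): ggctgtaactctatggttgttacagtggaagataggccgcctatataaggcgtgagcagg
Rpl41 (chr10:128549139-128549198, minus strand): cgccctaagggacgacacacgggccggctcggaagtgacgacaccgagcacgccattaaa
Rps28 (chr17:33824533-33824592, minus strand): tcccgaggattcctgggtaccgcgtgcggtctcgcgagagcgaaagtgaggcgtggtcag
Rpl38 (chr11:114668550-114668609, plus strand): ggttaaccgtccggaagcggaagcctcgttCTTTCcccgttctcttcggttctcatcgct
Rpl13 (chr8:123102320-123102379, plus strand): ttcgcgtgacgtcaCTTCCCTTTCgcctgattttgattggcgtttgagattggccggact
Rpl12 (chr2:32961682-32961741, plus strand): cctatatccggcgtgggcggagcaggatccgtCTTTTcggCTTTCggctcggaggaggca
Rps26 (chr10:128626477-128626536, minus strand): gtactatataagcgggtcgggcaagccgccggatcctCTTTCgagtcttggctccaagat
Rps27 (chr3:90213619-90213678, minus strand): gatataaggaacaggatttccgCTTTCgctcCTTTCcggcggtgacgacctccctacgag
Rpl15 (chr14:18270957-18271016, minus strand): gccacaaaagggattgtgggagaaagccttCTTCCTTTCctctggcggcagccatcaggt
Rplp2 (chr7:141447621-141447680, plus strand): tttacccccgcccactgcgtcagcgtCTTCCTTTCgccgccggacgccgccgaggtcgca
Both sets held windows with these letters, but the windows shown are a selection. Rpl19, Rpl22 and Rps3 also lay above the others and had none of these letters in their windows. The letters were present in 6 of the 12 members with an entry that lay above the others, in 3 of the 8 that lay below and in 27 of the 37 remaining.

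The labels were checked first on the deleted genes. Trp53 measured 14.9 to 20.3 FPKM in the 5 kidney i4F libraries and 13.9 to 17.9 in i4F Ink4a/Arf KO. Kidney i4F p53 KO had 10.2, 5.27, 4.90, 7.11 and 7.77, below every other kidney library. Among pancreas libraries, i4F had 1.64 to 6.99 and i4F Ink4a/Arf KO 1.97 to 4.16. Those labelled p53 KO had 16.4, 19.2, 10.7, 6.65 and 24.8, so Trp53 was not lower there, and every direction below rests on the label alone. A gene-level FPKM does not show which exons were read, and the deleted part is not given in the sources used here. Cdkn2a was at most 0.112 FPKM in every Ink4a/Arf KO library but also at most 0.318 in i4F, too low to check that label. FPKM (fragments per kilobase of transcript, scaled to the library's total) keep no read counts, so the depth behind each value is unknown beyond the labels' statement of over 24 M mapped reads per sample.

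The libraries were also read for other cell types and for sex. All 10 kidney markers were above 1 FPKM on average in every kidney group, and their sum spanned 20510 to 80390 FPKM for i4F. It spanned 23960 to 62600 for i4F Ink4a/Arf KO, and 6950 to 37600 for i4F p53 KO. Of 10 acinar markers 9 stood in the tables; their share of the pancreas total was 29.2 to 44.3% for i4F, 34.2 to 45.8% for i4F Ink4a/Arf KO, but 0.868 to 22.5% where the label was p53 KO. Ctrb1, an abundant acinar enzyme, is listed at 0 in all 10 libraries of the first 2 pancreas groups. Xist exceeded Ddx3y, as in female tissue, in kidney i4F replicates 4 and 5, kidney i4F Ink4a/Arf KO replicate 1, pancreas i4F replicates 3, 4 and 5 and pancreas i4F Ink4a/Arf KO replicate 1. It did so in 0 libraries of kidney i4F p53 KO and of pancreas labelled p53 KO. By this sign, sex was unbalanced in every comparison with those groups.

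Every member was above 0 in all 30 libraries, and 1 value in all lay below 1 FPKM. Because FPKM are values per length, members can be compared with each other. In kidney, the highest means over 15 libraries were Rpl41 with 1492 FPKM, Rplp1 with 1356 and Rps27 with 1252, and the lowest were Rpl30 with 9.82, Rpl34 with 18 and Rps15a with 22.3. In pancreas, Rplp1 with 2476 FPKM, Rpl41 with 2149 and Rps12 with 1736 led, and the same 3 members stood last, at 11.1 (Rpl30), 24.0 (Rpl34) and 31.3 FPKM (Rps15a). Rpl41 encodes the smallest ribosomal protein, and Rplp1 an acidic protein of the stalk that recruits translation factors. The highest and the lowest member were thus listed over 100 times apart in each tissue. Across the 77 members the log2 mean levels of both tissues had a Spearman rho of 0.909, and log2 level and transcript length one of -0.561 in kidney and -0.446 in pancreas, where all points share the same libraries. The length is that of 1 annotated transcript per gene, the longest among its best-ranked coding transcripts (5179 bases for Rps15a). It need not be the transcript expressed here or the length used for FPKM. In GENCODE M21, 59 of 77 members have at least 1 pseudogene named after them (291 in all; 9 for Rpl30, 2 for Rpl34 and 8 for Rps15a). How reads shared with such copies were counted is not given in the sources used here, so these levels are uncertain.

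The first question was how much of each transcriptome these genes take. The members' share of all kidney FPKM was 7.62, 6.53, 6.89, 8.93 and 8.77% for i4F, 7.72, 6.76, 7.33, 5.91 and 6.56% for i4F Ink4a/Arf KO, and for i4F p53 KO 9.35, 7.18, 7.00, 8.94 and 12.4%. These groups overlapped, with means of 7.75 ± 1.08, 6.86 ± 0.700 and 8.98 ± 2.18% (SD, n = 5). Replicate 5 of i4F p53 KO stood highest, and the kidney libraries with Xist above Ddx3y were the highest of the i4F and of the i4F Ink4a/Arf KO group. In pancreas the shares were 5.75, 4.09, 6.37, 6.57 and 6.74% for i4F, 5.12, 6.43, 5.81, 6.02 and 5.63% for i4F Ink4a/Arf KO, and 16.8, 12.9, 10.3, 6.10 and 16.8% where the label was p53 KO, with means of 5.90 ± 1.08, 5.80 ± 0.484 and 12.6 ± 4.55% (SD, n = 5). Of the last 5 libraries, 4 lay above all others and replicate 4 lay within them. The pancreas libraries with Xist above Ddx3y were the highest of the i4F group, but replicate 1 of i4F Ink4a/Arf KO, with Xist above Ddx3y, was the lowest of its group.

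**Figure D1:**
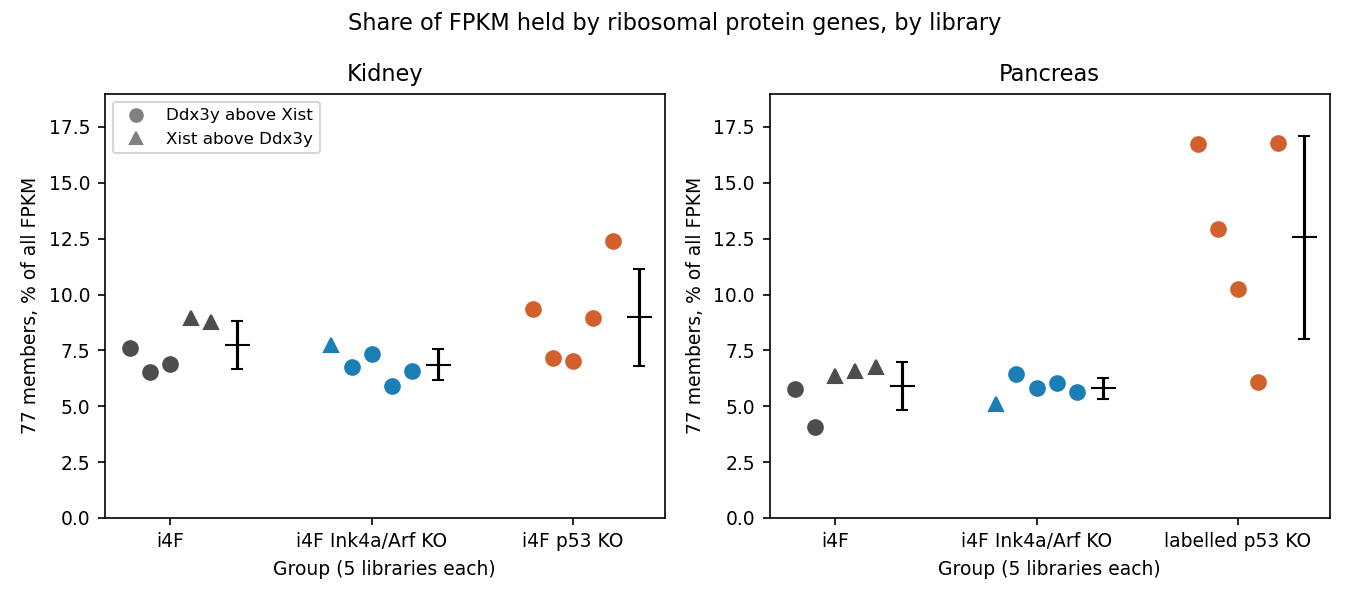
Share of all FPKM (%) held by the 77 ribosomal protein genes in each of 30 libraries, by tissue and group; each point is 1 library, triangles mark libraries with Xist above Ddx3y, and bars give the group mean and SD (n = 5). Kidney groups overlap, while in pancreas 4 of 5 libraries labelled p53 KO lie between 10.3 and 16.8%, above every other library, and the fifth is at 6.10%.

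The order of the pancreas shares depended on what was counted in the total. Without the 20 most abundant other genes of the tissue, the members' mean share was 24.0% for i4F, 25.6% for i4F Ink4a/Arf KO, but 18.2% where the label was p53 KO, so the last group became the lowest. Without the acinar markers alone it stayed the highest, at 13.8 ± 3.98% against 9.63 ± 1.54% and 9.66 ± 0.538% (SD, n = 5). That total still held other abundant genes, since the i4F share reached 24.0% without the 20 genes but 9.63% without the markers. Whether acinar RNA sets the order was not tested. For this reason every comparison was made on 3 scales. The first is FPKM as deposited. The second divides each library by its median ratio over all genes detected in every library of the tissue (scaled FPKM), so that the typical gene is level. The third divides by the median ratio over the members themselves (member-scaled FPKM), which centres the members by construction and shows only which of them depart from the rest. Size factors of the second scale were 0.463 to 1.00 for the other 10 pancreas libraries and 3.93, 3.33, 2.10, 1.31 and 3.73 for those labelled p53 KO, but only 0.891 to 1.16 over all 15 kidney libraries.

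In the kidney, no member passed the test in any comparison on any scale (limma, Benjamini-Hochberg adjusted over all 12431 genes tested, threshold 0.05). In i4F Ink4a/Arf KO against i4F all 77 log2 fold changes were negative as deposited, with a median of -0.21 against 0.00 for all genes, a smallest adjusted p of 0.9966 and none at an unadjusted p under 0.05. Of all genes tested, 398 had an unadjusted p under 0.05 as deposited. Called genes of either direction were 0% of all genes there, 0% after scaling and 0% on the member scale. In i4F p53 KO against i4F, 74 of 77 values were positive with a median of 0.13 (0.10 scaled). At an unadjusted p under 0.05 stood 0 members as deposited, 0 scaled and 2 on the member scale. Of all genes tested 1641, 1789 and 1333 did so. After adjustment 0.257% of all genes were called (0.499% scaled, 0.185% member-scaled).

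The widest kidney difference lay between the 2 knockouts. In i4F p53 KO against i4F Ink4a/Arf KO all 77 fold changes were positive, with a median of 0.34 as deposited and 0.31 scaled, against 0.03 and 0.00 for all genes. No member was called, where 0.265% of all genes were (0.539% scaled, 1.11% member-scaled). By limma 52 of 77 members had an unadjusted p under 0.05 as deposited, 38 scaled and 2 on the member scale. Of all 12431 genes tested, 2232, 2451 and 3908 had such a p on these 3 scales. The smallest adjusted value of a member was 0.121 as deposited. The groups did not overlap for 6 of 77 members, all higher in i4F p53 KO (1.92% of all genes tested did so in that direction).

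Rps20, a protein of the small subunit head, had the largest fold change of that comparison. It measured 602.8, 543.4, 578.0, 470.4 and 547.0 FPKM for i4F Ink4a/Arf KO, and 796.0, 610.3, 656.7, 903.6 and 1386 for i4F p53 KO (log2 fold change 0.61, SE 0.18, limma adjusted p = 0.137), and no value of the first group reached the second. Rpl12 of the stalk base (0.55, SE 0.18, adjusted p = 0.167) and Rps28 (0.53, SE 0.18, adjusted p = 0.171) came next. Rpl35a, at 0.05 (SE 0.12), was the smallest. It was also the member farthest below the others in that comparison, by -0.30 (SE 0.10, limma adjusted p = 0.0894).

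Single libraries weighed on these kidney values. Without replicate 5 of i4F p53 KO the median against i4F fell to 0.02, and against i4F Ink4a/Arf KO it was 0.24. In that replicate 76 of 77 members lay above their group mean, by a median of 0.44 on the log2 scale, but Rpl15, at 131.5 FPKM against 190.3, 119.8, 108.5 and 157.5 in replicates 1 to 4, did not share the rise. Replicates 2, 3 and 4 of i4F p53 KO and replicate 5 of i4F held 190.5 to 220.3 FPKM of Clps, a transcript of pancreatic acinar cells, while all other kidney libraries held at most 19.98. Without these 4 libraries the median of i4F p53 KO was 0.42 against i4F and 0.59 against i4F Ink4a/Arf KO, and in the latter comparison 41 of 77 members rose as deposited, 3 scaled and 1 fell on the member scale. That fit leaves replicates 1 and 5 of i4F p53 KO. Leaving out replicate 2 alone gave 2 members called as deposited, 3 scaled and 2 on the member scale. The shares of all genes called in these fits are not reported here, so the counts cannot be set against all genes. Myc, in the same libraries, measured 37.7, 3.45, 6.80, 17.3 and 9.43 FPKM in i4F p53 KO, 1.63 to 11.2 in i4F and 1.59 to 9.32 in i4F Ink4a/Arf KO; its part in the result was not tested.

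**Figure D2:**
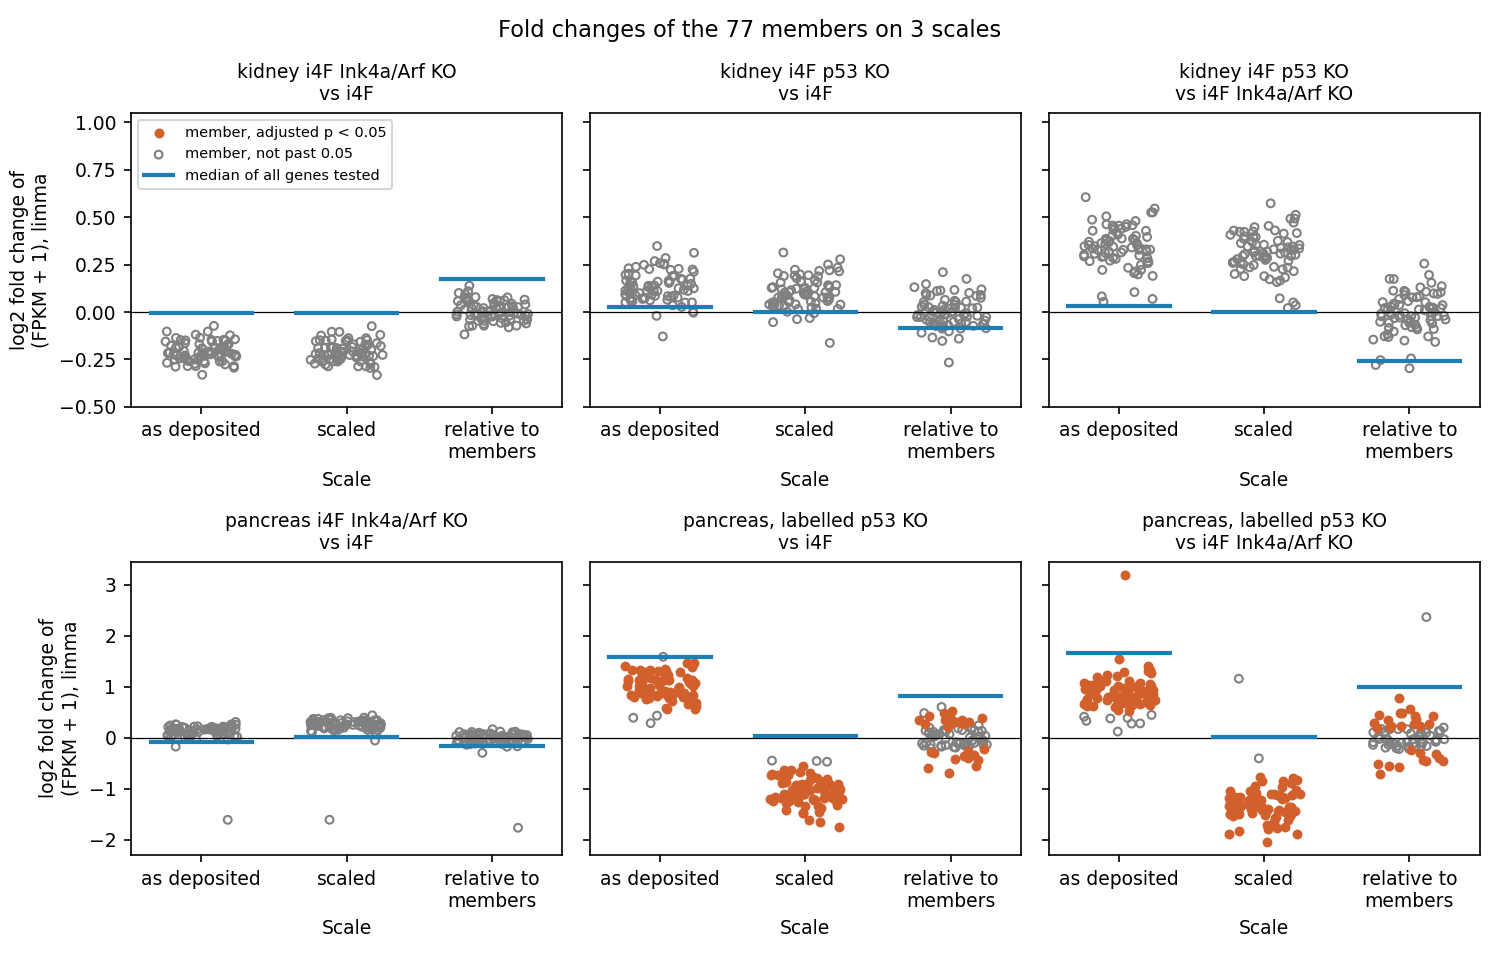
Log2 fold changes of (FPKM + 1) from limma for the 77 members (points) in 3 comparisons of each tissue and on 3 scales; filled points have an adjusted p under 0.05 and the line is the median of all genes tested. No kidney member is filled. In the pancreas comparisons of the libraries labelled p53 KO the members' median is positive as deposited and negative after scaling. It lies below that of all genes on each of the 3 scales. These differ by 1 factor per library, which moves members and all genes together apart from the added 1, so they are not separate support.

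In the pancreas without Ink4a/Arf no member passed the test either. Against i4F, the median log2 fold change was 0.14 as deposited (73 of 77 positive) and 0.27 scaled (75 positive), against -0.07 and 0.02 for all 10781 genes tested. The smallest adjusted p by limma was 1 as deposited and 0.946 scaled, no member had an unadjusted p under 0.05, and 0% of all genes were called on each scale. Of all genes tested, 36 as deposited and 515 scaled had an unadjusted p under 0.05. Rpl26, a large subunit protein near the exit tunnel that also binds Trp53 mRNA, was an exception among values, with -1.60 (SE 1.27). In i4F Ink4a/Arf KO it measured 597.4, 0.0194, 605.6, 463.5 and 335.0 FPKM and in i4F 180.2, 203.9, 647.7, 872.4 and 715.0. The second library was the single value of any member below 1 FPKM, and no other member was low in that library.

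The libraries labelled p53 KO differed from both other pancreas groups in nearly every member, in opposite directions on different scales. As deposited, 73 of 77 members rose against i4F and 0 fell, with a median log2 fold change of 0.99, which is lower than the median of 1.58 over all genes, of which 91.2% rose. The groups did not overlap for 57 of 77 members, a share close to the 73% of all genes tested. After scaling, 74 of 77 fell and 0 rose, with a median of -1.04 against 0.03 for all genes, of which 31.2% fell and 34.9% rose; 68 of 77 members did not overlap, against 21.1% of all genes in that direction. Against i4F Ink4a/Arf KO, which shares the p53 KO libraries, 69 of 77 rose as deposited (median 0.86, all genes 1.66, 91.7% of genes higher) and 75 of 77 fell after scaling (median -1.30, all genes 0.03, 33% lower). Under quantile normalization, another way to level libraries, the medians were -0.10 and -0.11. In each comparison 23 members were called there, most of them lower. The share of all genes called under that setting is not reported here, so this count cannot be set against all genes. The members' median thus lay below that of all genes as deposited and scaled, while its own sign depended on the scale. Scaling divides a whole library by 1 factor and so moves members and all genes together, apart from the 1 added to FPKM. The second scale is therefore no separate support for that order.

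Beside this change, marker sums of other cell types differed as deposited, the scale on which 91.2% of all genes rose. The sums were not taken after scaling. Summed over each list, 6 immune markers reached 287.3 to 1978 FPKM in the libraries labelled p53 KO against 17.31 to 274.4 in i4F. The 5 fibroblast markers reached 490.6 to 7122 against 49.63 to 227.5, and 4 duct markers 374.7 to 977.6 against 59.38 to 96.76. The 6 islet markers did not rise, with 50.93 to 2036 against 258.4 to 3511. The number of genes at 1 FPKM or more was 10507 to 13194 against 6596 to 9852. Myc measured 98.7, 83.9, 62.3, 36.1 and 62.1 FPKM against 3.82 to 11.1. Replicate 4 was the nearest to the other groups in acinar share (22.5%), size factor, Myc and member share; the part of these differences in the members' levels was not tested.

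The stalk of the large subunit shows the members' levels. Rplp0, its base and a common reference gene in expression assays, measured 600.6, 461.9, 700.1, 741.7 and 588.8 FPKM for i4F, 609.0, 761.3, 724.7, 735.6 and 627.2 for i4F Ink4a/Arf KO, and 1646, 1430, 1321, 870.9 and 1555 in the libraries labelled p53 KO. All 5 of the latter were above all others as deposited (log2 fold change against i4F 1.12, SE 0.23, limma adjusted p = 0.000182). After scaling the order was reversed, with 418.4, 429.5, 628.5, 666.8 and 417.1 against 739.5 to 1262 in i4F (-0.91, SE 0.22, adjusted p = 0.00242). Rplp1 rose by 0.70 as deposited and fell by 1.33 scaled against i4F, and Rplp2 rose by 1.26 and fell by 0.77. On the member scale the paired stalk proteins Rplp1 (-0.28) and Rplp2 (0.28) departed in opposite directions, but both calls were lost in several alternative fits, named in the closing section. Against i4F Ink4a/Arf KO neither departure was called (-0.21 and 0.16).

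Members known for links to p53 moved with the rest. Rpl5 and Rpl11, which with 5S RNA can bind Mdm2, measured 225.4 and 491.6 FPKM on average for i4F Ink4a/Arf KO, 226.7 ± 56.8 and 466.9 ± 74.5 for i4F, and 405.7 ± 91.7 and 888.1 ± 229.5 in the libraries labelled p53 KO (SD, n = 5). They rose by 0.85 and 0.90 as deposited against i4F and fell by 1.18 and 1.14 scaled. On the member scale neither was called (-0.13 and -0.09). Rpl23, another Mdm2 binder, rose by 0.81, fell by 1.22 scaled and was not called on the member scale (-0.17). Rpl26 measured 1564, 1280, 1371, 902.3 and 1482 FPKM in the libraries labelled p53 KO, above every other pancreas library. Its spread elsewhere left it uncalled against i4F on each scale, and against i4F Ink4a/Arf KO its call as deposited (3.19, SE 1.27, limma adjusted p = 0.0237) was lost without a filter on low values.

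The other members with known separate roles followed the same pattern. Rpsa, the small subunit protein also described as a laminin receptor, rose by 0.97 as deposited and fell by 1.07 scaled against i4F, and Rps6, the classic substrate of S6 kinase, by 0.92 and 1.11. Rps27a, made as a fusion with ubiquitin, rose by 1.13 and fell by 0.91. Of the X-linked members Rps4x rose by 0.88 and fell by 1.15 scaled, Rpl36a by 0.81 and 1.22, and Rpl39 by 1.14 and 0.90. None of these 6 was called on the member scale, where their values against i4F lay between -0.17 and 0.15. The remaining X-linked member, Rpl10, departed most of all.

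On the member scale, 14 of 77 members lay above the rest and 12 below in the libraries labelled p53 KO against i4F, while 73.7% of all genes were higher and 7.34% lower on that scale. Against i4F Ink4a/Arf KO the counts were 17 and 11, with 79.8% of all genes higher and 6.04% lower. The members differed in size of change as deposited too, from 0.29 to 1.59 against i4F. Members not called as deposited were Rpl10, Rpl26, Rpl32 and Rpl41 against i4F, and Rpl10, Rpl12, Rpl13, Rpl32, Rpl38, Rpl41, Rps14 and Rps28 against i4F Ink4a/Arf KO. Not called after scaling were Rpl26 and Rpl30 in both comparisons, and Rpl34 against i4F.

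**Figure D3:**
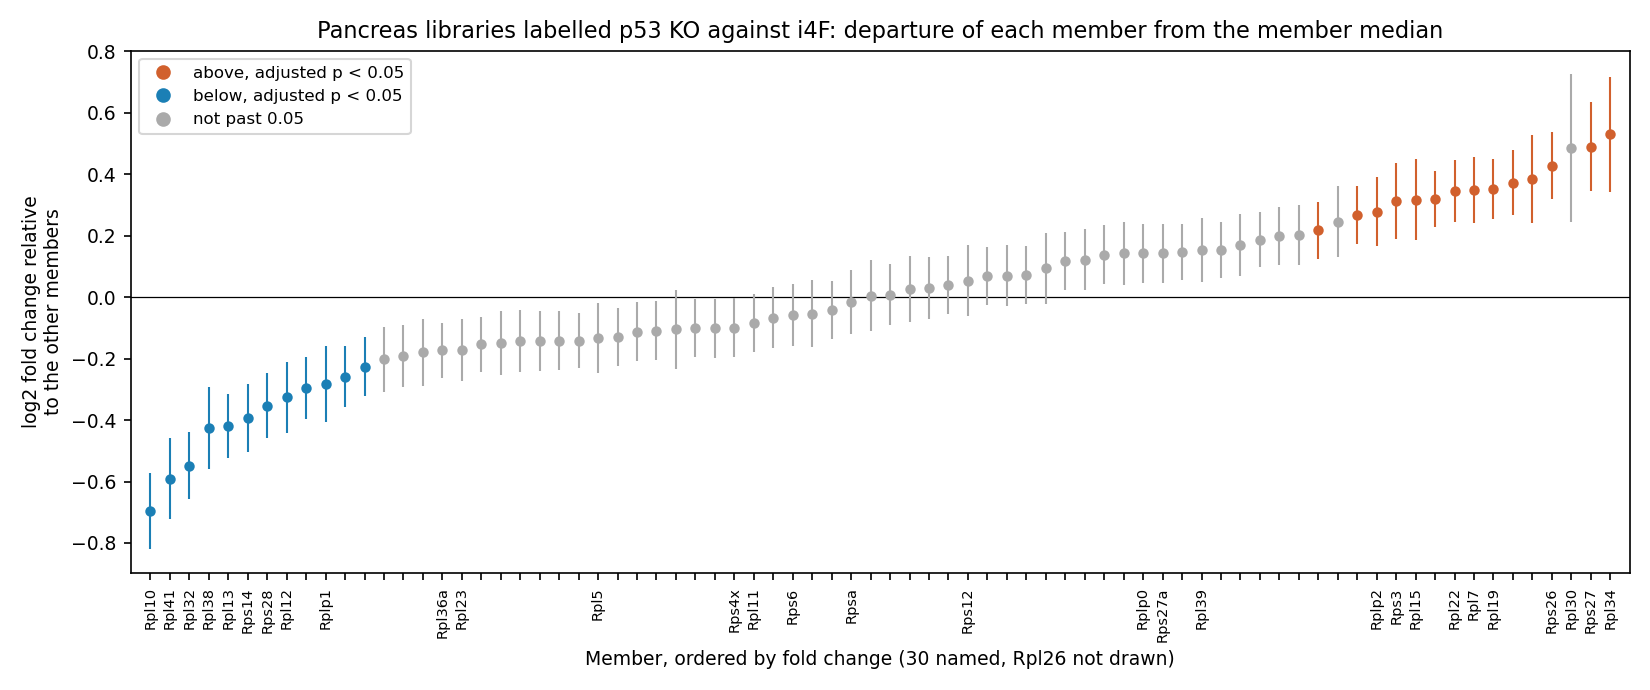
Log2 fold change relative to the other members (limma, ± SE) of 76 members in pancreas libraries labelled p53 KO against i4F, ordered by value, with the members described in the text named; Rpl26, at 0.60 with an SE of 1.35, is not drawn. The values run from -0.70 for Rpl10 to 0.53 for Rpl34, with 12 members called below and 14 above.

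Rpl10, a late-joining protein near the peptidyl transferase centre, stood farthest below. Its member-scaled values were 1584, 1790, 1516, 1609 and 1679 for i4F, 1825, 1549, 1593, 1613 and 1717 for i4F Ink4a/Arf KO, and 890.1, 927.9, 1038, 1268 and 956.2 where the label was p53 KO. The last group did not overlap the others, and its replicate 4 was nearest to them (log2 fold change against i4F -0.70, SE 0.12, limma adjusted p = 0.000115; against i4F Ink4a/Arf KO -0.72, adjusted p = 6.83e-05). As deposited Rpl10 hardly differed, with 1546 ± 184 FPKM against 1271 ± 190 (SD, n = 5; 0.29, SE 0.22, limma adjusted p = 0.209).

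Rpl41 and Rpl32 came next. Rpl41 had member-scaled values of 1472, 1487, 1722, 1807 and 1656 against 2730, 2890, 2287, 2006 and 2410 in i4F (-0.59, SE 0.13, limma adjusted p = 0.000815), and Rpl32 858.4, 835.6, 863.2, 903.1 and 740.0 against 1354, 1360, 1153, 1130 and 1154 (-0.55, SE 0.11, adjusted p = 0.000296). Neither overlapped i4F. Rpl38, whose loss in mice alters the translation of Hox mRNAs, departed by -0.43 and Rpl13 by -0.42, and Rps14 by -0.39 against i4F and -0.51 against i4F Ink4a/Arf KO.

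Above the rest stood Rps26, a protein at the mRNA exit channel. Its member-scaled values were 976.3, 964.7, 942.3, 746.1 and 877.2 in the libraries labelled p53 KO against 686.9, 714.4, 654.3, 637.1 and 642.3 in i4F (0.43, SE 0.11, limma adjusted p = 0.00213) and 630.4 to 736.5 in i4F Ink4a/Arf KO. Rpl22, which is replaced by its paralog Rpl22l1 when lost, had 70.1, 73.9, 69.2, 75.1 and 79.1 against 51.9 to 65.3 (0.34, SE 0.10, adjusted p = 0.00526). Neither member overlapped between the libraries labelled p53 KO and i4F. Rpl19 had 671.7, 647.5, 588.0, 537.9 and 622.7 against 458.8 to 492.8, and it and Rpl7 departed by 0.35 each. Against i4F Ink4a/Arf KO the largest among called members were Rpl30 (0.78, a low member at 6.09 to 19.8 FPKM on average), Rps27 (0.56), Rpl15 (0.49), Rpl22 (0.46) and Rps3 (0.44).

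**Figure D4:**
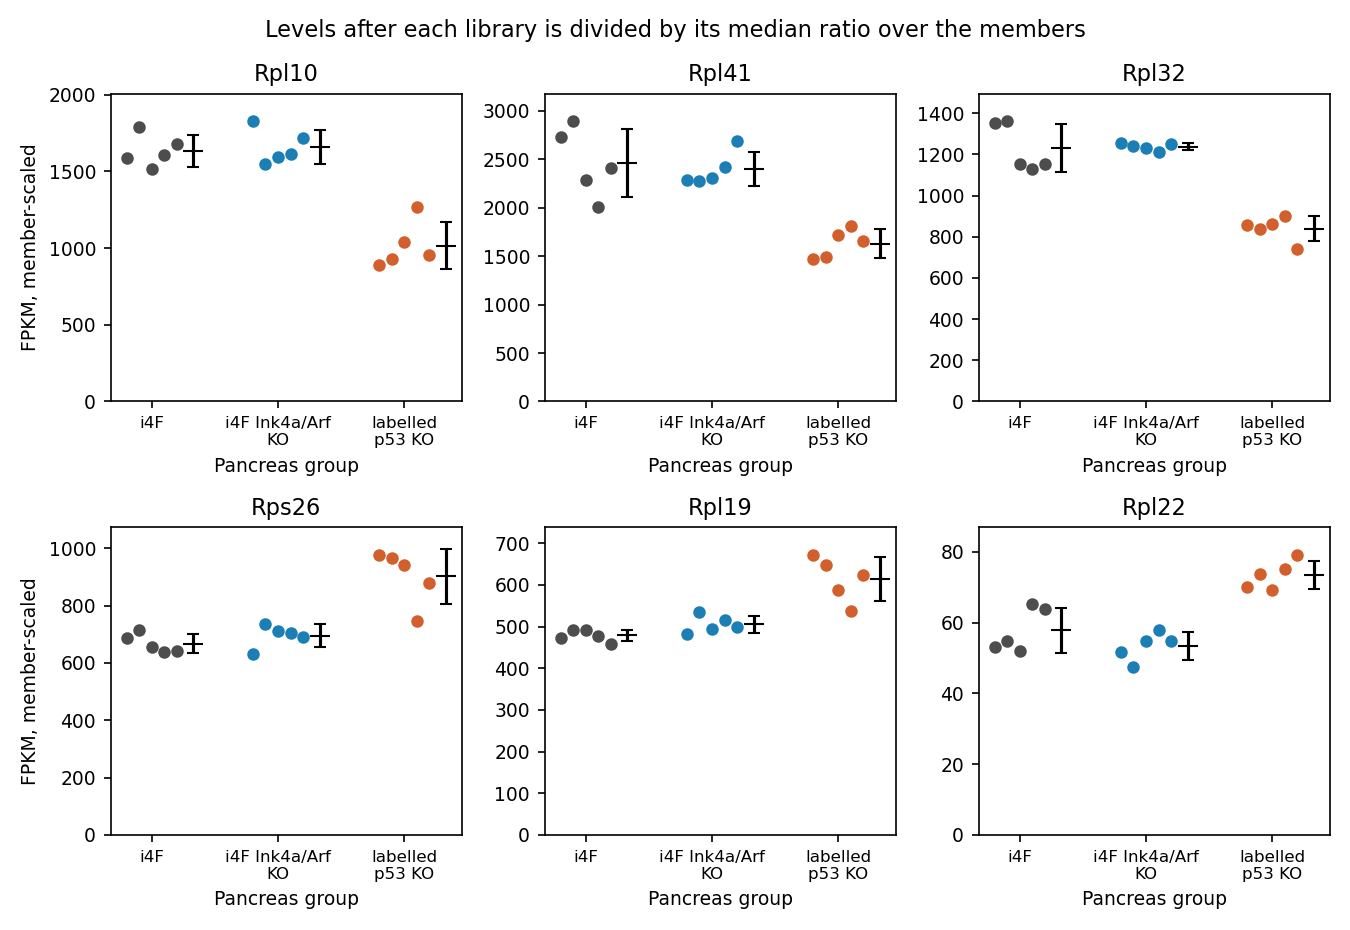
Member-scaled FPKM of 6 members in 15 pancreas libraries; points are libraries and bars the group mean and SD (n = 5). Rpl10, Rpl41 and Rpl32 lie lower, and Rps26, Rpl19 and Rpl22 higher, in every library labelled p53 KO than in any i4F library, with replicate 4 nearest to i4F for each of them except Rpl22.

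The members that lay below were those listed high in pancreas relative to kidney. Both tables were deposited separately and may be normalized separately, so only the order of members is used here. It was taken from the i4F Ink4a/Arf KO libraries, which are in neither group of the comparison with i4F. The pancreas ones still enter its shared estimate of the spread and the reference of the member scale, so the calls are not independent of them. There the log2 difference of medians, pancreas minus kidney, ran from -0.42 for Rps27 (765.2 and 1027 FPKM) to 1.65 for Rpl12 (902.3 and 286.4), with a median of 0.41. The 12 members below the rest had a median of 0.92 (0.41 to 1.65), the 14 above -0.01 (-0.42 to 0.53) and the other 51 0.39. Across the 77 members this difference and the member-scaled fold change had a Spearman rho of -0.661. The fold change had a rho of 0.134 with the length of the annotated transcript described above, -0.0967 with its GC content and -0.496 with the log2 level in pancreas i4F Ink4a/Arf KO. Members are not independent, and shared libraries can tie their values. Rps12, second in the tissue order at 1.16, was an exception and was not called (0.05).

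**Figure D5:**
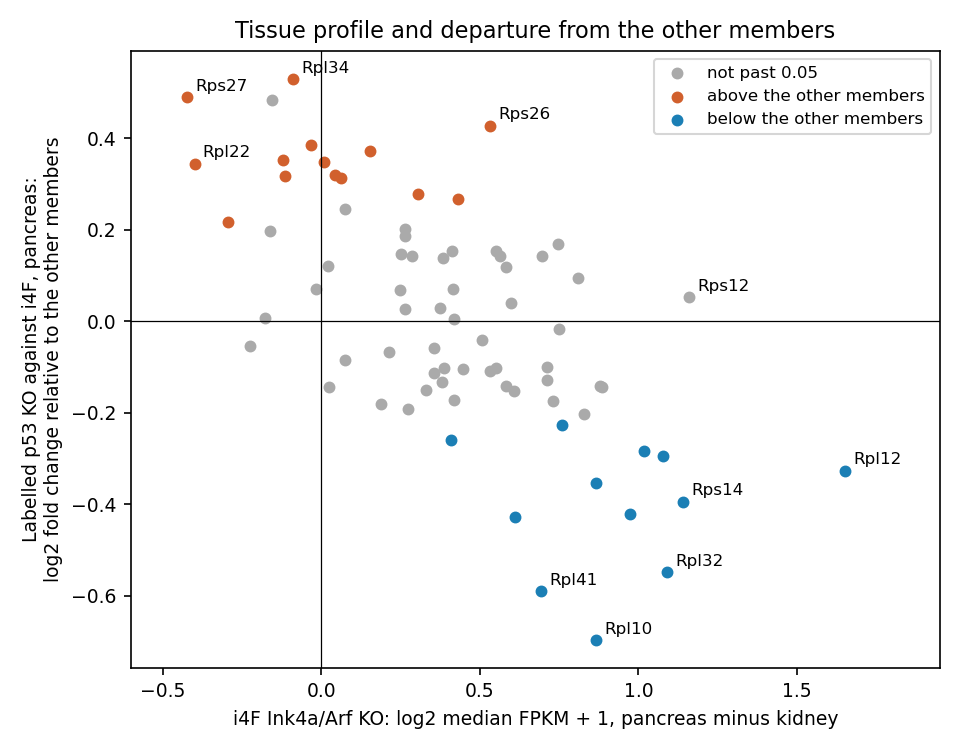
For 76 members (Rpl26 not drawn), the log2 difference between pancreas and kidney medians in i4F Ink4a/Arf KO (x) and the log2 fold change relative to the other members in pancreas libraries labelled p53 KO against i4F (y). The 12 members called below lie at x values from 0.41 to 1.65, and the 14 called above from -0.42 to 0.53.

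Genes around the ribosome did not all move alike in the libraries labelled p53 KO against i4F. These lists were chosen with earlier results of these data known. Of 54 genes of ribosome production, 25 rose and 3 fell after scaling, where 34.9% of all genes rose and 31.2% fell. Their median was 0.33, against 0.03 for all genes. Among them Ddx21, a nucleolar helicase, rose by 1.01 and Ncl, nucleolin, by 0.63, while Riok2 (0.55) and Ddx10 (0.62) had the smallest p-values. Of 76 mitochondrial ribosomal proteins 6 rose and 40 fell on that scale, with a median of -0.38; Mrpl45 rose by 0.59 and Mrps21 fell by 1.18. As deposited all 54 and all 76 rose, where 91.2% of all genes did, with medians of 1.94 and 1.46 against 1.58 for all genes. In kidney i4F p53 KO against i4F none of either list was called on any scale. Against kidney i4F Ink4a/Arf KO 1 gene of ribosome production was called, Nop14, which rose by 0.32 after scaling (limma adjusted p = 0.045). On the member scale 1 mitochondrial ribosomal protein was called there, Mrps23, at -0.60 (limma adjusted p = 0.0391).

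The 19 other genes with pyrimidine-start mRNAs divided. After scaling 3 rose and 13 fell, with a median of -0.85, beside 34.9% and 31.2% of all genes. Pabpc1, the poly(A)-binding protein, rose from 52.2 to 88.2 scaled FPKM (0.75) and Npm1, the nucleolar chaperone, by 0.78, whereas Tpt1 fell by 1.51 and Eef1b2 by 0.94. As deposited 18 of 19 rose and none fell, a share close to the 91.2% of all genes.

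Paralogs of the members were tested where they passed the filter, 4 of 7 in pancreas. After scaling Rps27l, which is a known p53 target, fell by 2.09 (109.6 ± 67.0 against 416.6 ± 98.1 scaled FPKM, SD, n = 5; limma adjusted p = 6.86e-05). Rpl22l1 fell by 1.504 and Rpl36al fell by 1.39, while Rpl7l1 was not called (-0.23). As deposited Rps27l was not called (-0.06), and the other 3 rose, by 0.51 to 1.66. On the member scale Rps27l lay below the members by -1.04 and Rpl22l1 by -0.47, while Rpl22 itself lay above them. In kidney i4F p53 KO against i4F Rps27l measured 276.1 ± 18.96 against 355.3 ± 57.0 FPKM (-0.35, SE 0.10, limma adjusted p = 0.156), and none of 5 tested paralogs was called.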

How the data were processed

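RNA of 30 kidney and pancreas libraries was read with a stranded poly(A) kit, per the labels' protocols (RIN 7.4 to 9.4, 8 PCR cycles). The authors deposited FPKM per gene, in 1 table per tissue. The submitters' processing notes list Cufflinks 2.2.1, Bowtie 1.0.0, TopHat2 2.0.10, FastQC, SAMtools 0.1.19 and build mm10, without their roles. Handling of multiply mapped reads is not given in the sources used here.

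FPKM were tested as log2(FPKM + 1) with limma 3.58.1 (R 4.3.3, trend, all 15 libraries of a tissue in 1 fit, contrasts between groups), over genes reaching 1 FPKM in 5 or more libraries (12431 in kidney, 10781 in pancreas), with Benjamini-Hochberg adjustment over all of them; a gene is called at an adjusted p under 0.05. A fold change on this scale understates that of low genes. The as-deposited and scaled fits were also run on simulated data, in which most genes did not shift as they did in pancreas. The member-scale fit was not simulated, and the outcome is not reported here. No p was computed for sums over members. Descriptions used Python 3.11.15 with pandas 2.3.3 and scipy 1.17.1; positions come from GENCODE M21 and RefSeq (GRCm38.p6), in which Rps3a was matched as Rps3a1.

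Members, lists and tests were chosen with earlier results of these data known. Named are a fixed set of members with separate roles (Rplp0, Rplp1, Rplp2, Rpsa, Rpl5, Rpl11, Rpl23, Rpl26, Rps27a, Rps4x, Rpl10, Rpl36a, Rpl39, Rps6, Rpl22), the 3 highest and lowest of each tissue, the 5 largest called changes without overlap and the 3 members farthest from the rest per comparison; further names were chosen after their values were seen, and some items are not reported here. Same replicate numbers were not treated as pairs in the main fits.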

Additional observations from a re-analysis of the deposited data

Results flagged for a closer look

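Of 90 sets of 5 values (15 members with separate roles in 6 groups), 2 held a value standing far from the other 4, with a gap of over 0.71 of the whole range; chance alone gives about 1 in 20. Rplp2 in kidney i4F Ink4a/Arf KO replicate 4 measured 417.8 FPKM, against 489.6 to 510.0 in the other 4 (gap ratio 0.779). Rpsa in pancreas i4F Ink4a/Arf KO replicate 5 measured 320.3 FPKM, against 360.7 to 376.8 (gap ratio 0.716). None of 18 sets of library shares and member medians held such a value.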

How the results depend on the processing

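Alternatives were a pseudocount of 0.1, no filter or one at 5 FPKM, an Xist covariate, only both groups in the fit, upper-quartile, median-of-ratios or quantile scaling, a replicate block, and leaving out libraries. Apart from median-of-ratios scaling, the shares of all genes called under them are not reported here. Counts of members called below therefore cannot be set against all genes. The total without mitochondrially encoded genes was not run, since neither table analysed holds mt- rows. After scaling, all 792 values of named members kept their direction and call. Median-of-ratios scaling is itself the second scale and is not among these values; it turned 73 members higher and 0 lower into 0 and 74 against i4F, and 69 and 0 into 0 and 75 against i4F Ink4a/Arf KO. As deposited, under the other alternatives, 755 of 792 did, 15 lost the call and 22 reversed, all under quantile normalization; on the member scale 481 of 504 did and 23 lost it, mostly Rplp1 and Rplp2 (both under the replicate block, with only both groups fitted and without single libraries). The causes were not tested.

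Leaving out the 4 kidney libraries with over 100 FPKM of Clps, the median of i4F p53 KO was 0.42 against i4F and 0.59 against i4F Ink4a/Arf KO, with 41 (as deposited), 3 (scaled) and 1 (member scale) members called in the latter. Leaving out single libraries gave 0 to 2, 0 to 3 and 0 to 2 there.

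For the pancreas libraries labelled p53 KO, median-of-ratios scaling turned the median to -1.04 against i4F and -1.30 against i4F Ink4a/Arf KO, and quantile normalization to -0.10 and -0.11, with 23 and 23 members called. Under quantile normalization these reversed against i4F: Rpl34 -0.37, Rpl30 -0.47, Rps15a -0.51, Rpl36a -0.34, Rpl23 -0.37, Rpl5 -0.61, Rps4x -0.0316, Rpl11 -0.21, Rps6 -0.41, Rpsa -0.17 and Rpl22 -0.45. Against i4F Ink4a/Arf KO they were Rpl30 -0.34, Rpl15 -0.25, Rps15a -0.54, Rpl36a -0.34, Rps4x -0.0635, Rpl23 -0.34, Rpl11 -0.17, Rpl5 -0.59, Rpsa -0.10, Rps6 -0.29 and Rpl22 -0.45. Leaving out single libraries gave 70 to 75 and 64 to 74 members called as deposited.

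Without the 20 most abundant other genes, the members' share was 8.61% in kidney i4F Ink4a/Arf KO, 9.60% in kidney i4F, 10.8% in kidney i4F p53 KO, 25.6% in pancreas i4F Ink4a/Arf KO, 24.0% in pancreas i4F and 18.2% in pancreas labelled p53 KO.

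With the replicate number as a replicate block, 69 and 63 pancreas members were called as deposited, 72 and 75 scaled, 21 and 21 on the member scale, and 0 in kidney. At most 3 of 5 same-numbered pairs per comparison deviated together (r over 0.1), with r up to 0.291 in kidney i4F p53 KO against i4F. With 5 pairs each, this cannot show whether same-numbered libraries were related.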

Other observations

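Within a group, members tended to be high or low in the same libraries. Library medians departed from their group mean by -0.57 (pancreas, labelled p53 KO, replicate 4) to 0.44 on the log2 scale (kidney i4F p53 KO, replicate 5), while the SD of the members around their library's median was 0.05 to 0.18 when Rpl26 was left out. In pancreas i4F replicate 2 none of 77 members lay above its group mean, and in pancreas i4F Ink4a/Arf KO replicate 3 all 77 did.

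The letters CCGGAAG, a form of the site bound by ETS factors, stood on either strand of the 300 bases around the start in 24 of 57 members (42.1%) and in 9.93% of all genes with an entry. The members lie on 19 chromosomes, 4 of them on X, and 32 of 77 are annotated as hosts of small RNAs.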
